A study of Mus musculus with 2 samples.

Results

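The NMDA receptor is the glutamate-gated, calcium-permeable ion channel of excitatory synapses, and its subunits are encoded by 7 mouse genes, Grin1, Grin2a, Grin2b, Grin2c, Grin2d, Grin3a and Grin3b. These genes were chosen by their symbols and not by a measured value, though earlier results of these data were known. They make up 7 of the 55536 genes and 39 of the 141864 transcripts quantified. Total RNA of the hippocampus, labelled as layer of hippocampus, was sequenced from B6CASTF1/J males, first-generation hybrids of a C57BL/6J and a CAST/EiJ parent, at 2 months of age, from 300 ng of RNA per library with ERCC spike-in RNAs added. The 2 libraries, called replicate 1 and replicate 2, carry biological replicate numbers and the same donor label, so that they come from separate animals rests on those numbers. They form 1 group with no treatment or genotype contrast, and no test between groups and no p-value could be made. Reads of both parental genomes were assigned to the C57BL/6J reference, and reads lost at CAST/EiJ variants were not measured.

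Every NMDA receptor holds GluN1, the product of Grin1, which binds the co-agonist glycine or D-serine. GluN2 subunits (Grin2a to Grin2d) bind glutamate and set the opening kinetics and the magnesium block of the channel, and GluN3 subunits (Grin3a and Grin3b) bind glycine and lower calcium permeability. In the rodent forebrain GluN2B predominates early and GluN2A is added after birth, and the receptors of hippocampal pyramidal cells are the classic site of the study of long-term potentiation.

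Grin1 transcripts differ by 3 cassettes, which are shown here because the isoform results turn on them. N1 is an extracellular segment that lowers inhibition of the channel by protons. C1 lies in the intracellular tail and carries a signal that holds the receptor in the endoplasmic reticulum. C2 and C2' are alternative ends of that tail, and C2' ends in a motif bound by PDZ domains. Grin3a has 1 annotated insert in its tail, known from rat as the mark of the long form of GluN3A. The sequences were cut from GENCODE M21 transcripts at the exon coordinates of mm10, and they are written 5′ to 3′ on the strand of the gene. Capitals mark the cassette, and lower case marks 12 flanking bases, except that the stop codon alone follows C2 and C2'.
Grin1 N1: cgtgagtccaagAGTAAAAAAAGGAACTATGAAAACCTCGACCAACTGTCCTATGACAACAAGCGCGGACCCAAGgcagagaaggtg
Grin1 C1: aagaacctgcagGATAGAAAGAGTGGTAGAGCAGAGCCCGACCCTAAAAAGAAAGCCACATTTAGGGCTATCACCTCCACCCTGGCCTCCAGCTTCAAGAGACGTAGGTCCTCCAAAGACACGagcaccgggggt
Grin1 C2: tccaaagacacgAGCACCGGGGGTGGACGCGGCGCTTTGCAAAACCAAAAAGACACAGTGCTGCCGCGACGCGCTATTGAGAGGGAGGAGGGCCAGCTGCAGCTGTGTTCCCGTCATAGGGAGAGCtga
Grin1 C2': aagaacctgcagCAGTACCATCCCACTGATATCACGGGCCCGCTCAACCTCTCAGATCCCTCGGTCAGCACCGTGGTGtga
Grin3a insert: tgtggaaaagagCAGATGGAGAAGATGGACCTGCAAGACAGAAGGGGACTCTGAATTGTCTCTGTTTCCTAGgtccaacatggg

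Each is a whole number of codons long. N1 is 63 bases (21 codons) and is exon 4 of 21 of transcript Grin1-204, at chr2:25311343-25311405 on the minus strand. C1 is 111 bases (37 codons), exon 20 of 21 of the same transcript, at chr2:25294438-25294548. The coding part of C2, 114 bases (38 codons) at chr2:25292371-25292484, opens the last exon of 1304 bases, and the C2' form of that exon starts 356 bases further on and is 948 bases long. C2' is coding over 66 bases (22 codons) at chr2:25292063-25292128. The Grin3a insert is 60 bases (20 codons) at chr4:49665566-49665625 on the minus strand, inside exon 9 of 9 of Grin3a-202. N1 has a GC content of 44.4%, C1 of 52.3%, C2 of 62.3%, C2' of 60.6% and the Grin3a insert of 48.3%.

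The depth was near equal, with a total expected count of 31422800 in replicate 1 and 31303000 in replicate 2, and marker genes of the labelled tissue were present. All 8 hippocampal neuron markers were detected, meaning a level of at least 1 TPM in both libraries, among them Slc17a7, the vesicular glutamate transporter of forebrain excitatory neurons, at 585 ± 7.55 TPM (SD, n = 2, as in all values below). Levels are in TPM, an abundance corrected for transcript length and scaled to a fixed sum over all entries of a quantification. Of the 4 markers of cerebellar granule cells only Neurod1, which hippocampal granule cells also use, was detected, while Gabra6 was at 0.06 TPM in replicate 1 and 0.05 in replicate 2 and Barhl1 was listed at 0 in both. Of the 3 choroid plexus markers 2 were detected, Ttr at 10.6 TPM in replicate 1 and 23.1 in replicate 2 and Kl at 4.04 and 3.96. The summed level of the 3 was 14.8 TPM in replicate 1 and 27.3 in replicate 2. These are bulk samples, so fewer cells of a type and less RNA per cell cannot be told apart.

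Grin1, Grin2a and Grin2b were the 3 abundant subunit genes, Grin2c, Grin3a and Grin2d were present at lower levels, and Grin3b was at the edge of detection. In all, 6 of the 7 genes were detected, where 26.2% of all 55536 genes were. That base holds genes of all types, while the 7 subunit genes are protein-coding, so it is a low bar for them. The median level of the 7 genes, with the undetected Grin3b among them, was 19.5 TPM. That of the 14560 detected genes, which leaves undetected genes out, was 12.8 TPM. By mean level Grin1 stood at rank 349, Grin2a at rank 424 and Grin2b at rank 568 among protein-coding genes, of which 12710 were detected.

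Grin1 lies at chr2:25291181-25319187 on the minus strand of mm10 (ENSMUSG00000026959.13) and has 14 annotated transcripts, of which 8 carry a complete coding sequence. Its level was 180.4 TPM in replicate 1 and 170.5 in replicate 2, from expected counts of 15222 and 14986. The mean was 175 ± 7.03 TPM, the highest of the 7 genes. The authors' interval of the level within a library, which rests on a posterior estimate, ran from 172 to 179 TPM in replicate 1 and from 163 to 170 TPM in replicate 2, just below the TPM itself in both. The second quantification, made directly from the reads, gave 286 and 273 TPM. Each of the 6 detected genes was higher there. The share of TPM on nuclear protein-coding genes was 42.1% in replicate 1 and 41.2% in replicate 2 in the first quantification, made from reads aligned to the transcriptome, and 74.2% and 74.4% in the second.

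Grin2a encodes GluN2A, the GluN2 subunit of mature forebrain synapses with fast deactivation. It lies at chr16:9567898-9995560 on the minus strand (ENSMUSG00000059003.12), and its level was 156 TPM in replicate 1 and 154 in replicate 2, from 33653 and 32345 counts. The mean was 155 ± 1.5 TPM, with 242 and 257 TPM in the second quantification. Replicate 1 was 1.38% above replicate 2 in the first quantification and below it in the second.

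Grin2b encodes GluN2B, which deactivates slowly and binds calcium/calmodulin-dependent kinase II through its long tail. It lies at chr6:135713233-136173511 on the minus strand (ENSMUSG00000030209.14). Its level was 140 TPM in replicate 1 and 116 in replicate 2, from 43869 and 38786 counts, with a mean of 128 ± 16.8 TPM. The authors' intervals, from 131 to 145 TPM in replicate 1 and from 108 to 121 TPM in replicate 2, did not overlap. Those of Grin1, given above, did not overlap either. The second quantification gave 200.5 and 155 TPM, with replicate 1 again higher. Of the 6 subunit genes with 50 or more expected counts in each library, it had the widest gap between them.

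Grin2c encodes GluN2C, a subunit of weak magnesium block that is most abundant in cerebellar granule cells. At chr11:115249169-115267243 on the minus strand (ENSMUSG00000020734.13), it had a level of 19.3 TPM in replicate 1 and 19.7 in replicate 2, from 1943 and 2023 counts. Its mean of 19.5 ± 0.233 TPM stood beside the cerebellar markers Gabra6, Cbln3 and Barhl1, of which the highest, Cbln3, was at 0.13 and 0.19 TPM. The remaining marker of that list, Neurod1, which hippocampal granule cells also use, was at 13.5 and 13.2 TPM. The 3 astrocyte markers were all detected, with a summed level of 895 TPM in replicate 1 and 837 in replicate 2, and their part in the level of Grin2c was not tested.

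Grin2d encodes GluN2D, the slowest of the GluN2 subunits, which in adult forebrain is found chiefly in interneurons. At chr7:45831883-45878378 on the minus strand (ENSMUSG00000002771.12), it had a level of 4.07 TPM in replicate 1 and 4.38 in replicate 2, from 483 and 506 counts, with a mean of 4.23 ± 0.219 TPM. All 5 interneuron markers were detected, from Vip at 7.0 ± 0.191 TPM to Sst at 164 ± 4.87 TPM, and their part in the level of Grin2d was not tested.

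Grin3a was the GluN3 gene present, and Grin3b had next to no reads. Grin3a, which encodes GluN3A, a subunit that restrains synapse maturation in the young brain, lies at chr4:49661611-49845744 on the minus strand (ENSMUSG00000039579.15). Its level was 13.6 TPM in replicate 1 and 13.8 in replicate 2, from 2085 and 2134 counts, with a mean of 13.7 ± 0.12 TPM. Grin3b, a subunit gene known for its expression in motor neurons, lies at chr10:79970715-79977190 on the plus strand (ENSMUSG00000035745.9). It had 1 count in replicate 1 and 7 counts in replicate 2, or 0.01 and 0.16 TPM, too few for a ratio. Its neighbour Tmem259 overlaps it on the opposite strand and had 2207 and 2305 counts.

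**Figure D1:**
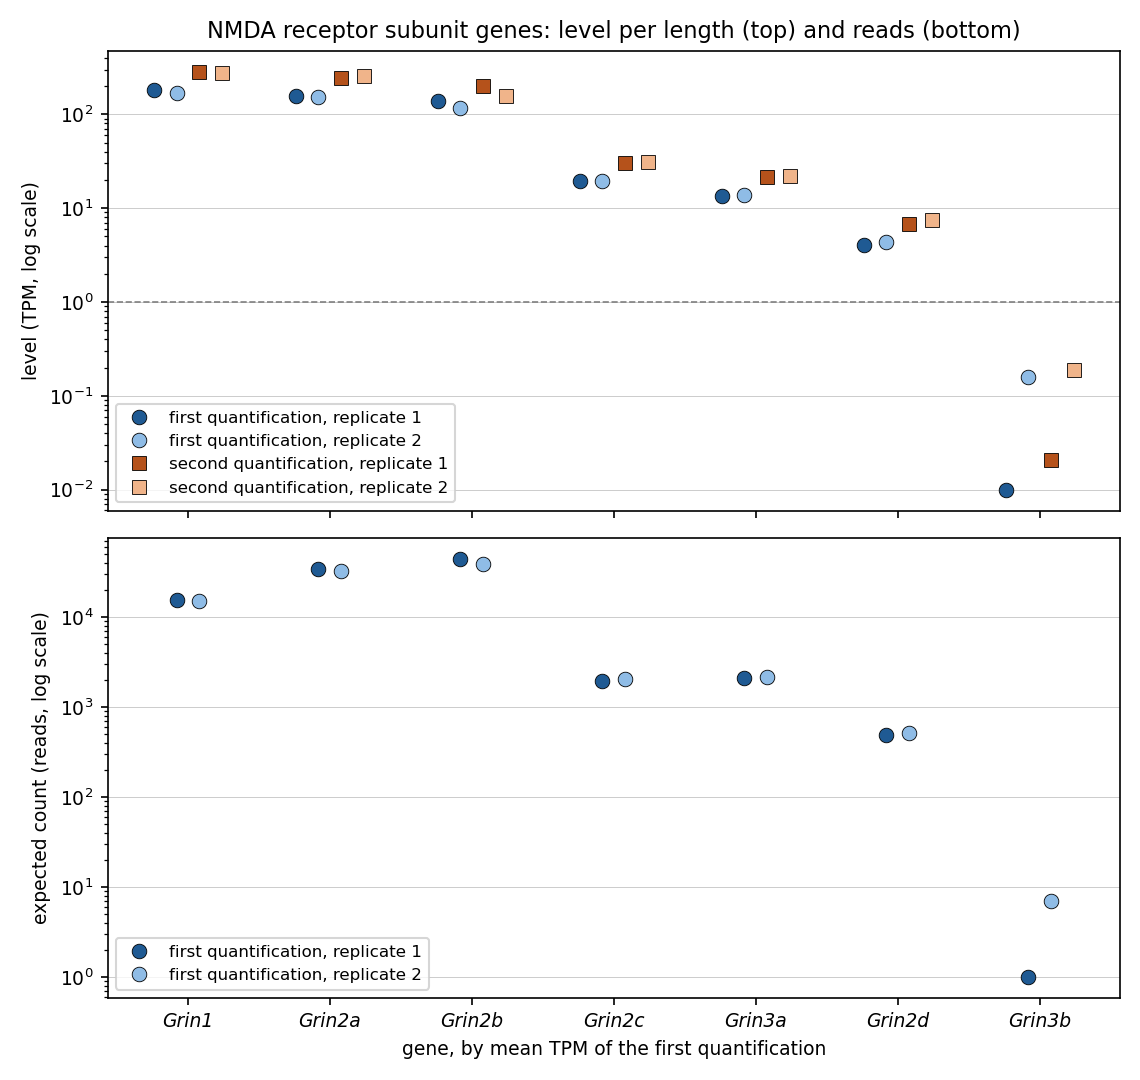
Levels of the 7 subunit genes in TPM on a log axis (top; circles first quantification, squares second quantification, dashed line 1 TPM) and their expected counts in reads on a log axis (bottom), with 1 point per library. Grin1 heads the order by level, Grin2b heads it by reads, and Grin3b alone lies below the dashed line.

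In the order of mean levels each gene differed from the next beyond the spread of the libraries, by the rule that the ranges do not overlap and the difference of means is over the sum of the SDs. The closest call was Grin2a over Grin2b, with a difference of 27.6 TPM against a sum of SDs of 18.3 TPM. Grin1 was above Grin2a by 20.2 TPM against 8.53 TPM, and Grin2b above Grin2c by 108 TPM against 17.0 TPM. Among the lower genes, Grin2c exceeded Grin3a by 5.80 TPM, Grin3a exceeded Grin2d by 9.48 TPM and Grin2d exceeded Grin3b by 4.14 TPM, each against a sum of SDs of at most 0.354 TPM. On the scale of reads the order of the first 3 was the opposite, with mean expected counts of 41328 for Grin2b, 32999 for Grin2a and 15104 for Grin1. Counts are not corrected for length, and the mean transcript length in replicate 1 was 14082 bases for Grin2b, 9676 bases for Grin2a and 3852 bases for Grin1.

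The level of Grin2a over that of Grin2b was 1.12 in replicate 1 and 1.33 in replicate 2, a mean ratio of 1.23 ± 0.149. In both libraries and in both quantifications Grin2a was the higher per length, with 1.21 and 1.66 in the second quantification. The ratio of expected counts was 0.767 in replicate 1 and 0.834 in replicate 2, on the other side of 1. Of the summed GluN2 level, Grin2a held 50.7% ± 2.46, Grin2b 41.5% ± 3.06, Grin2c 6.37% ± 0.447 and Grin2d 1.38% ± 0.152. Summed GluN2 level over Grin1 level was 1.77 in replicate 1 and 1.72 in replicate 2, and Grin1 was 12.8 ± 0.625 times the level of Grin3a. These are ratios of RNA, and protein was not measured.

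Between the libraries, none of the 6 subunit genes with 50 or more expected counts in each library was 2-fold apart, where 0.273% of the 13916 such genes were. On the log2 scale, the TPM of replicate 1 over that of replicate 2 was 0.27 for Grin2b, 0.08 for Grin1, 0.02 for Grin2a, -0.02 for Grin2c and Grin3a, and -0.11 for Grin2d. Over all 13916 genes this ratio had a median of 0.04 and an SD of 0.20. Of these genes 85.0% had a smaller ratio than Grin2b, taken without sign. That base holds all genes from 50 counts up, and genes with counts like those of Grin2b were not taken alone. The gap for Grin2b was 0.18 on the log2 scale in expected counts, 0.17 in depth-scaled counts with TMM factors and 0.14 when complete coding transcripts alone were summed, and 0.37 in the second quantification. Of the choroid plexus markers, Ttr was at 10.6 TPM in replicate 1 and 23.1 in replicate 2. Kl was at 4.04 and 3.96 TPM and Folr1 at 0.08 and 0.23 TPM, and the part of choroid plexus RNA in the Grin2b gap was not tested.

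Transcripts with a whole coding sequence held most of the level of each detected subunit gene. For Grin2c the share was 100% in both libraries, since both of its annotated transcripts are complete. For Grin1 it was 87.8% in replicate 1 and 90.6% in replicate 2, and the remainder lay on processed transcripts without a coding sequence. For Grin2a it was 77.5% and 75.3%, beside 20.5% and 17.2% on transcripts annotated as retained introns, which held 11.6% and 10.1% in the second quantification. For Grin2b it was 68.5% and 74.7%, beside 31.5% and 23.7% on transcripts with a partial coding sequence, which held 26.5% and 11.8% in the second quantification. Grin3a had 85.2% and 82.2%, with the rest on processed transcripts, and Grin2d had 100% and 93.6%, with the rest on a partial transcript. All these are shares of a level per length, in which short transcripts weigh more than in reads. By expected counts, the whole coding Grin2a-206 alone held 82.6% and 80.7% of Grin2a, and Grin2b-201 alone held 89.2% and 87.0% of Grin2b.

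**Figure D2:**
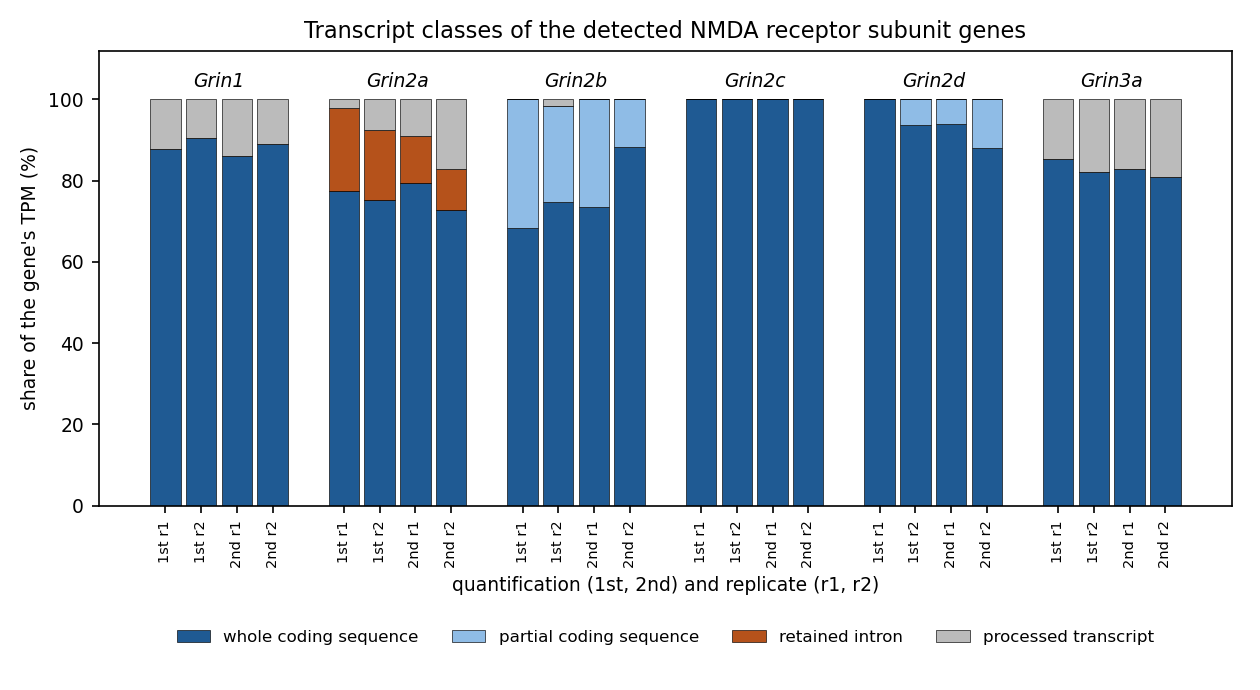
Share of each detected gene's TPM in percent on transcripts with a whole coding sequence, a partial coding sequence, a retained intron or no coding sequence, with 1 bar per quantification and library. Whole coding transcripts form the largest class in every bar, retained introns appear for Grin2a only, and the partial class is largest for Grin2b in every library and quantification but replicate 2 of the second, where Grin2d has 11.96% and Grin2b 11.8%.

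Grin2a and Grin2b were led by transcripts with very long 3′ ends. Grin2a-206, of 14634 bases with a last exon of 11729 bases, held 54.4% of the Grin2a level in replicate 1 and 50.4% in replicate 2. The shorter Grin2a-202, of 5023 bases, held 23.1% and 24.9%. Both encode the same 1464 codons, so these transcripts differ outside the coding sequence, and 9929 bases follow the stop codon of Grin2a-206. The retained-intron transcript Grin2a-204 held 11.3% and 11.4%, while Grin2a-203, also a retained intron, held 9.20% and 5.82% in the first quantification and 0.315% and 0% in the second. The processed transcript Grin2a-205, of 602 bases, held 2.03% and 7.49% in the first quantification and 9.04% and 17.1% in the second.

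Grin2b-201, of 24060 bases with a last exon of 20716 bases, held 52.1% of the Grin2b level in replicate 1 and 52.6% in replicate 2, and 89.2% and 87.0% of its expected counts. Grin2b-202, of 7484 bases and with the same 1482 codons, held 16.4% and 22.1% of the level. Of the transcripts with a partial coding sequence, Grin2b-204 held 12.4% and 8.09%, Grin2b-206 held 9.71% and 7.21% and Grin2b-205 held 6.74% and 6.55%. In the second quantification Grin2b-206, of 601 bases, held 18.7% in replicate 1 and 2.60% in replicate 2, and Grin2b-205 held 2.60% and 2.14%. Summed over whole coding transcripts alone, the level of Grin2b was 95.5 TPM in replicate 1 and 86.5 in replicate 2.

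The remaining detected genes had simpler transcript sets. Grin2c-201 and Grin2c-202 encode the same 1239 codons and share a last exon of 1539 bases, and the first quantification put 53.3% and 55.8% of the level on Grin2c-201, where the second put 41.5% and 41.8%. Grin2d-201 held 71.5% and 66.4%, Grin2d-203 held 28.5% and 27.2%, and the partial Grin2d-202 held 0% in replicate 1 and 6.39% in replicate 2. Grin3a-201, the form without the insert, held 60.6% and 66.6%, Grin3a-202 with the insert 24.6% and 15.6%, and the processed transcript Grin3a-203 14.3% and 16.8%. For Grin3b, with so few counts, the shares were not read. The transcript with the highest level was the same in both libraries and both quantifications for Grin2a, Grin2b, Grin2d and Grin3a, and for Grin1 it was Grin1-201 in the first quantification and Grin1-205 in the second.

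The N1 cassette shown above was on a minority of Grin1 coding transcripts. Transcripts with N1 summed to 20.5 TPM in replicate 1 and 23.3 in replicate 2, and transcripts without it to 138 and 131 TPM. The share with N1 was 12.9% and 15.1%, a mean of 14.0% ± 1.51, and it was 15.4% and 17.4% in the second quantification. Both libraries and both quantifications thus lay between 12.9% and 17.4%. In the annotation every form with N1 has a first exon of 467 bases, and the forms without it have 492 or 559 bases. The share therefore does not rest on reads over the cassette alone, and the part of the first exons in it was not tested.

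Both tail cassettes were on a large part of the Grin1 level. C1 was on 51.8% and 51.7% of the level of transcripts that span it, a mean of 51.8% ± 0.0804, and on 46.7% and 47.4% in the second quantification. The longer last exon, which encodes C2, was on 60.9% in replicate 1 and 62.7% in replicate 2, a mean of 61.8% ± 1.24, and the C2' form was on the rest. The second quantification gave 55.1% and 57.5% for C2. For both cassettes the gap between the quantifications was wider than that between the libraries, and it put the C1 share on either side of an even split.

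The Grin3a insert was on 28.9% of the level of its coding transcripts in replicate 1 and 19.0% in replicate 2, a mean of 23.9% ± 7.01. The second quantification gave 27.8% and 19.1%. Here the libraries were farther apart than the quantifications. The expected counts were 557 in replicate 1 and 368 in replicate 2 for the form with the insert, and 1361 and 1556 for the form without it. With the insert, the authors' interval ran from 2.33 to 5.03 TPM in replicate 1 and 1.18 to 3.81 in replicate 2. Without it, the interval ran from 6.22 to 9.02 and from 7.10 to 9.89 TPM. For both forms the intervals of the libraries overlapped. The forms are 7491 and 7431 bases long and share most of their sequence, so these counts are estimates and not reads over the insert alone.

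**Figure D3:**
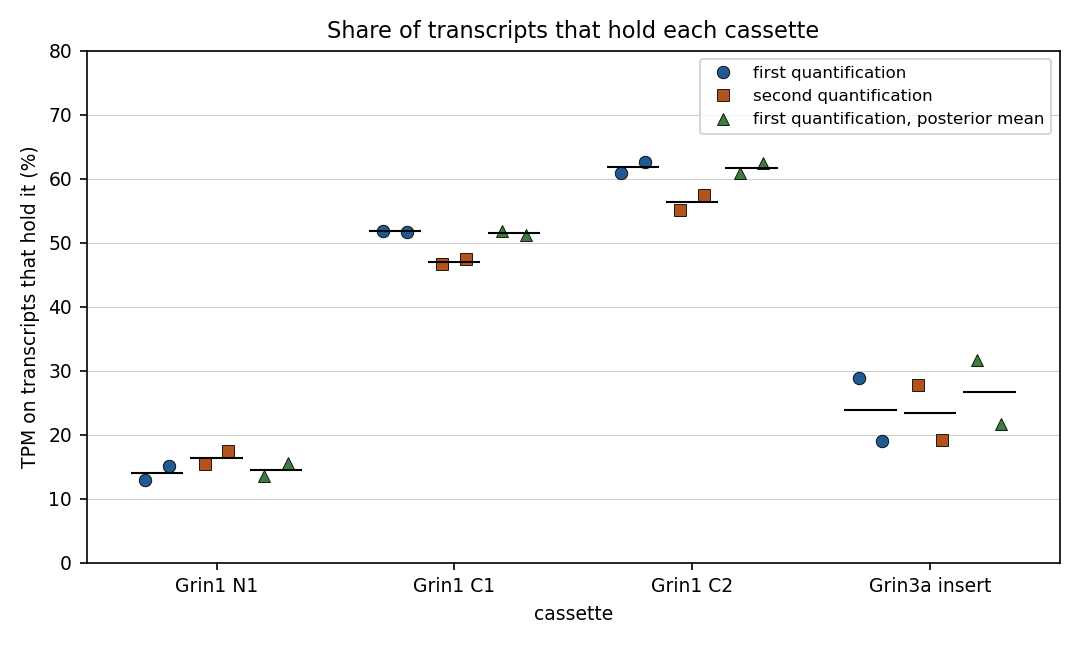
Share in percent of the TPM of spanning transcripts that hold each cassette, by quantification (circles first, squares second, triangles posterior mean of the first). Left and right points are replicate 1 and replicate 2 and bars are means of the 2 libraries; N1 lies between 12.9% and 17.4% and the 2 libraries are farthest apart for the Grin3a insert.

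The 8 coding forms of GluN1 combine N1 with the 4 tails. In their usual names the number gives the tail, 1 with C1 and C2, 2 with C2 alone, 3 with C1 and C2' and 4 with C2' alone, and the letter is b with N1 and a without it. Across tails, GluN1-1 held 40.6% of the coding level, GluN1-2 21.3%, GluN1-3 11.3% and GluN1-4 26.8% (means of the 2 libraries), and the second quantification gave 38.7%, 17.7%, 8.46% and 35.1%. GluN1-1 had the largest share and GluN1-3 the smallest in each library and each quantification.

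Single forms were less well determined. GluN1-1a (Grin1-201, 938 codons) was at 62.5 TPM in replicate 1 and 62.9 in replicate 2, and GluN1-4a (Grin1-205, 885 codons) at 41.7 and 42.1 TPM. In the second quantification GluN1-4a led, at 86.2 and 85.4 TPM, with GluN1-1a at 69.6 and 70.8 TPM. Grin1-205 has an annotated first exon of 559 bases and Grin1-201 one of 492, so these forms differ outside the cassettes too. GluN1-2a (Grin1-202, 901 codons) was at 33.8 and 22.5 TPM, and at 33.7 and 31.3 TPM in the second quantification. These 3 forms without N1 were the most abundant in both quantifications.

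Among the forms with N1 the quantifications gave different leaders. GluN1-3b (Grin1-208, 943 codons) was at 19.9 TPM in replicate 1 and 11.96 in replicate 2 in the first quantification, above the upper bounds of 10.5 and 11.3 TPM of the authors' interval, and at 5.15 and 4.53 TPM in the second. GluN1-1b (Grin1-204, 959 codons) was at 0.02 and 1.41 TPM in the first and at 22.4 and 26.6 TPM in the second. GluN1-3a (Grin1-206, 922 codons), which lacks N1, was at 0.04 and 3.57 TPM in the first, below the lower bounds of 6.95 and 3.76 TPM, and at 18.3 and 13.5 TPM in the second. For GluN1-1b and GluN1-3a the posterior mean of the first quantification lay between, at 7.41 and 9.65 TPM and at 15.5 and 10.98 TPM. For GluN1-3b it was 3.67 TPM in replicate 1 and 4.11 in replicate 2, below both quantifications. By posterior mean GluN1-1b was the highest form with N1 in both libraries, as in the second quantification. GluN1-2b (Grin1-203) was at 0.57 and 9.90 TPM in the first quantification and at 10.4 and 11.4 TPM in the second, with a posterior mean of 6.51 and 6.85 TPM. GluN1-4b (Grin1-207) was listed at 0 in both libraries and both quantifications, with a posterior mean of 3.25 and 2.73 TPM.

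**Figure D4:**
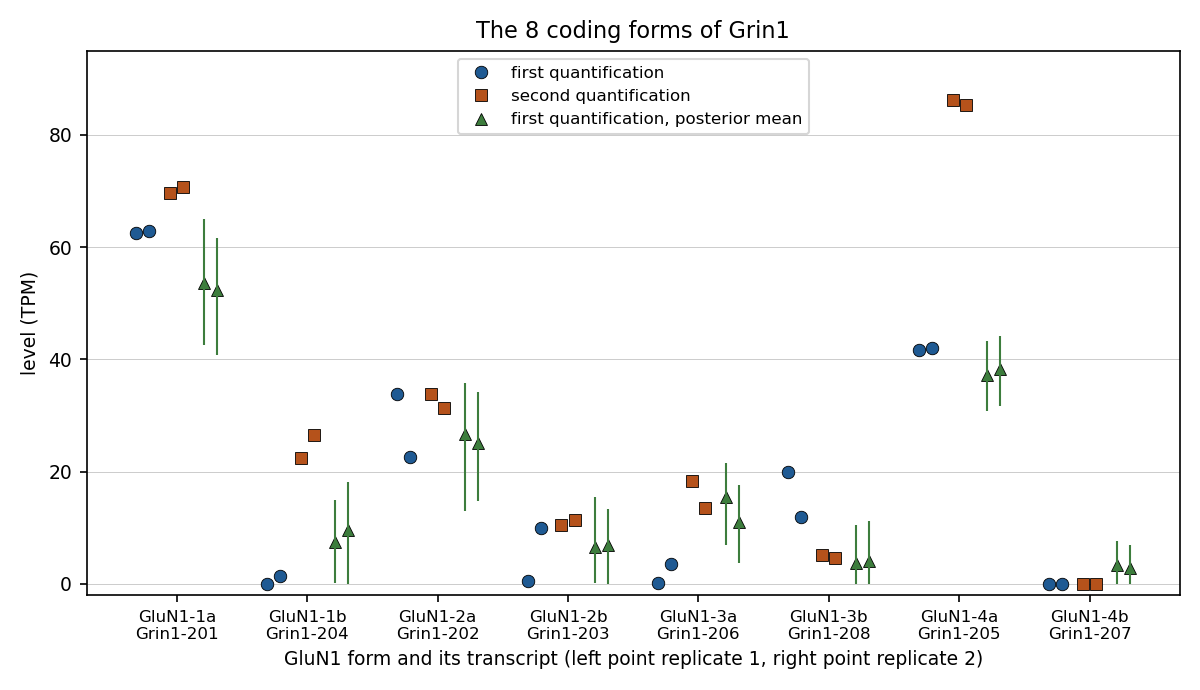
Level in TPM of the 8 coding forms of GluN1 by quantification (circles first, squares second, triangles posterior mean of the first with the authors' interval as a vertical line), with replicate 1 left and replicate 2 right. GluN1-1a, GluN1-2a and GluN1-4a are the highest in both quantifications, and GluN1-1b is near 0 in the first and above 22 TPM in the second.

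The genes share exon structure within a class and differ in coding composition. The 4 GluN2 genes have 10 internal coding exons each, and 6 exon lengths, of 115, 154, 126, 230, 161 and 188 bases, occur in all of them. The 2 GluN3 genes have 7 internal coding exons each and share 4 lengths, of 146, 116, 152 and 165 bases. No length was shared by all GluN2 and GluN3 genes, or by Grin1 and all GluN2 genes. The GC content of the coding sequence was 50.8% for Grin2a, 52.9% for Grin2b and 55.8% for Grin1, against 62.4% for Grin2c, 67.3% for Grin2d and 64.0% for Grin3b, with Grin3a at 51.1%. The 3 genes of highest level thus had lower GC than Grin2c, Grin2d and Grin3b, which over so few genes is a description.

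Annotated genes that overlap the subunit genes had few reads in most cases. Grin1os, antisense to Grin1, had 3 counts in replicate 1 and 2 counts in replicate 2. Gm26653, antisense at the 5′ end of Grin2b, had 16 and 15 counts. Gm45441, antisense to Grin2d, had 92 and 86 counts beside the 483 and 506 of Grin2d, and Kdelr1, which overlaps Grin2d from the opposite strand, had 948 and 910. Within Grin3a on its own strand, Ppp3r2 had 22 and 11 counts and the pseudogene Gm12459 had 0 and 1. Gm14329, Gm14330, Gm22892, Gm25837 and Gm22098 were at 0 in both libraries. The libraries were stranded per the labels' spike-in profile, but whether the counting used strand is not given in the sources used here, so the level of Grin2d, the least abundant detected subunit, is uncertain to the extent of such overlaps.

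Beside the other ionotropic glutamate receptors, the NMDA receptor genes summed to a level between AMPA and kainate receptor genes. The 7 NMDA receptor genes summed to 513 TPM in replicate 1 and 478 in replicate 2. The 4 AMPA receptor genes, which carry fast excitatory transmission, summed to 684 and 636 TPM, and the 5 kainate receptor genes to 183 and 174 TPM. Grin1, at 175 ± 7.03 TPM, was below Gria1 at 295 ± 14.9 TPM and Gria2 at 276 ± 18.9 TPM, and above Gria3 at 66.2 ± 0.962 TPM, Gria4 at 22.1 ± 0.226 TPM and the highest kainate gene, Grik5, at 99.3 ± 2.67 TPM. The other kainate genes ranged from Grik1 at 5.46 ± 0.389 TPM to Grik2 at 39.0 ± 2.86 TPM, with Grik4 at 24.8 ± 1.36 TPM and Grik3 at 9.99 ± 0.467 TPM.

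**Figure D5:**
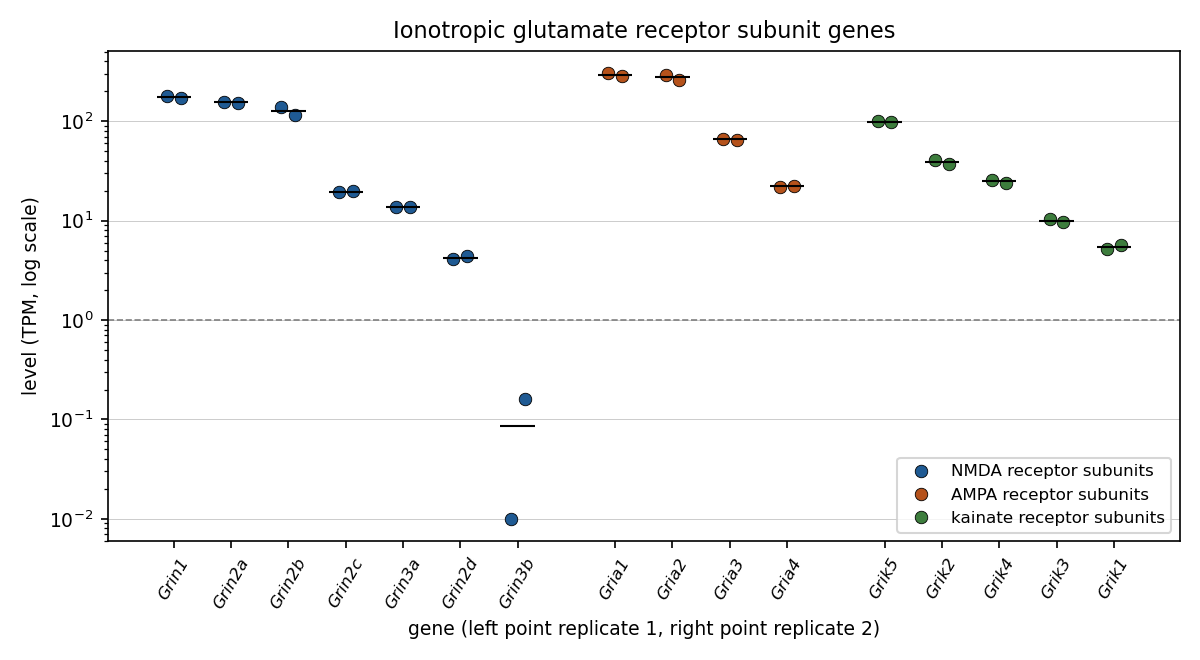
Level in TPM on a log axis of the subunit genes of NMDA, AMPA and kainate receptors, with 1 point per library, bars at the mean of the 2 libraries and a dashed line at 1 TPM. Gria1 and Gria2 lie above Grin1, Grik5 lies below Grin2b, and Grin3b is the only gene below the dashed line.

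Genes of the scaffolds and kinases that bind or modify NMDA receptors were all present. Of 23 such genes 23 were detected, with a median level of 63.4 TPM, where 26.2% of all 55536 genes were detected. That base holds genes of all types, and 12710 of the 14560 detected genes were protein-coding, so it is a low bar for both partner lists. Both lists were also chosen with earlier results of these data known, so their detection counts are descriptions. The highest were Camk2a and Camk2b, the kinase subunits that bind GluN2B, at 1437 ± 92.8 and 493 ± 2.89 TPM, and Nsmf, which signals from the receptor to the nucleus, at 391 ± 7.90 TPM. Of 13 genes that make, move or break down agonists and co-agonists, 7 were detected, and the median over all 13 was 6.63 TPM. Srr, the enzyme that makes D-serine, was at 38.0 ± 1.79 TPM, the amino acid transporter gene Slc38a1 at 31.5 ± 0.940 TPM and Slc7a10, a transporter of D-serine, at 19.7 ± 1.23 TPM.

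The 6 members of that list that were not detected were those of D-serine breakdown, of glycine uptake at inhibitory terminals and 4 of the 5 kynurenine pathway genes on the list. The list does not hold the whole pathway. Dao, D-amino acid oxidase, was at 0 TPM in replicate 1 and 0.07 in replicate 2, and Slc6a5, the glycine transporter of inhibitory neurons, at 0 and 0.01 TPM. Of the kynurenine pathway, which makes the receptor agonist quinolinic acid and the antagonist kynurenic acid, Kmo was at 0.06 and 0.05 TPM and Aadat at 0.27 and 0.07 TPM. Haao, at 0.08 and 0.07 TPM, and Qprt, at 0.05 and 0.09 TPM, were as low, while Kyat1 was detected at 6.63 ± 0.325 TPM. A TPM this low rests on at most 5 counts per library, so lower levels were not measurable at this depth.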

How the data were processed

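Total RNA of 2 hippocampus libraries was quantified by the authors in a gene quantification, a first transcript quantification (both from an alignment to the transcriptome) and a second transcript quantification (directly from the reads), with mm10 and GENCODE M21, per the deposited text listings. No program or version is given in the sources used here. The deposited expected count estimates the reads of each gene or transcript and can be fractional. By the deposited columns, TPM is scaled over all entries, and the posterior mean TPM is an alternative estimate. The lower and upper bounds of the interval of TPM, recorded as a signal because the bounds, unlike TPM, are not scaled to a fixed sum, are used as deposited. The isoform percent of the authors was deposited with the first quantification, and shares were recomputed from TPM for both quantifications.

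Gene names, biotypes, exons and coordinates came from GENCODE M21. Means and SDs were taken over the 2 libraries, which differed by more than sampling noise (chi-square of 4.09 per degree of freedom on 20087 degrees of freedom). Detection was a TPM of 1 or more in each library. Between-library ratios were taken at expected counts of at least 50 in both, on log2 TPM with no pseudocount. TMM factors came from edgeR 4.0.16 under R 4.3.3, and tables from Python 3.11.15 with pandas 2.3.3. A cassette's share is the TPM of transcripts that hold it over that of transcripts that span it. The ratio calculation was checked on simulated counts with 200 changed genes. These had high counts, changes set beyond the 2-fold call and sampling noise alone. The check therefore covers the arithmetic and not the spread of these libraries or genes of low count. The members and lists were chosen with earlier results of these data known. Named were all members, transcripts with at least 5% of a gene's TPM in any library and quantification, genes overlapping a member, the AMPA and kainate receptor genes, and the 3 highest and all undetected genes of each partner list.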

Additional observations from a re-analysis of the deposited data

How the results depend on the processing

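No paired analysis was possible because the series holds 1 group. In the second quantification the mean level was 279 TPM for Grin1, 249.7 TPM for Grin2a, 178 TPM for Grin2b, 30.5 TPM for Grin2c, 7.15 TPM for Grin2d and 21.7 TPM for Grin3a. Rescaled to nuclear protein-coding genes the levels were 421 TPM for Grin1, 373 TPM for Grin2a, 306 TPM for Grin2b, 46.9 TPM for Grin2c, 10.2 TPM for Grin2d, 32.9 TPM for Grin3a and 0.206 TPM for Grin3b. Over complete coding transcripts alone, an alternative chosen after seeing the data, they were 156 TPM for Grin1, 119 TPM for Grin2a, 91.0 TPM for Grin2b and 11.5 TPM for Grin3a. The order of the 7 genes was the same under each of these 3 settings. The ratio of Grin2a to Grin2b was 1.43 in the second quantification and 0.801 in expected counts, which turns its direction, since counts grow with transcript length. The ratio of summed GluN2 to Grin1 was 1.66 in the second quantification, 5.08 in expected counts and 1.49 over complete coding transcripts. In the second quantification the N1 share was 16.4%, the C1 share 47.1% and the C2 share 56.3%. With posterior mean TPM, also chosen after seeing the data, the C1 share was 51.5%. With no filter on counts 1 gene, Grin3b, was 2-fold apart between the libraries, on 1 and 7 counts. Leaving out either library gives the value of the other, which with 2 libraries always lies within 1 SD of the mean; it gave 1.12 and 1.33 for Grin2a over Grin2b and 28.9% and 19.0% for the Grin3a insert. Of 28 transcript shares, 20 moved by more than the spread in the second quantification, 10 with posterior mean TPM and 15 as shares of counts. The 6 log2 ratios between libraries moved by less than the SD over all genes under all 5 other scalings and estimates. Detection counts were the same within 1.5 times at every threshold tried, with 5 subunit genes at 5 TPM. With 2 libraries, an SD is a rough guide to spread.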

Other observations

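Among the partner genes of NMDA receptors, Neto1, an auxiliary subunit of kainate receptors that also binds NMDA receptors, had the widest gap between the libraries, at 73.0 TPM in replicate 1 and 54.5 in replicate 2 (log2 ratio 0.42). It was chosen after its values were seen. Its expected counts were closer, at 6617 and 6298. Its mean level was 63.7 TPM in the first quantification and 63.1 TPM in the second, while every other gene of that list was higher in the second. Over lists, the median log2 ratio of replicate 1 over replicate 2 was 0.001 for the 6 measured NMDA receptor genes, 0.07 for the 4 AMPA receptor genes, 0.10 for the 5 kainate receptor genes and 0.03 for the 23 scaffold and kinase genes, beside 0.04 over all 13916 genes.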
